A study of Mus musculus with 13 samples.

Results

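The kinetochore is the protein structure that forms on each centromere and joins the chromosome to the spindle during mitosis. Its genes, together with those of the spindle checkpoint, form the group described here. It holds 38 genes chosen for their known roles, and 37 of them had a probe set that carries no other gene, out of 22180 genes measured. Mis12 was listed only on a probe set shared with another gene and was not analysed here. The inner kinetochore, built on the histone variant CENP-A, carries the outer kinetochore, whose NDC80 complex binds microtubules. Until every kinetochore is attached, the checkpoint proteins hold back the anaphase-promoting complex and so delay the separation of sister chromatids. In most dividing cells these genes are transcribed periodically and reach their highest level in G2 and mitosis, and cells that have left the cycle express them weakly.

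The RNA came from splenic dendritic cells of C57Bl/6 littermates, labelled male, that bore a B16 melanoma secreting Flt3L, which enlarges the dendritic cell pool. The tumour cells were injected at 6 weeks of age, and 5 days later all animals received 100 ul of PBS into the peritoneum, either with 50 ug of muramyl dipeptide (MDP), a bacterial cell wall fragment sensed by the receptor NOD2, or alone. Cells positive for CD205 and CD8 were sorted after 24 h and divided by surface CD103, the αE integrin. The 4 groups were MDP CD103 high (replicates 2, 3 and 4), MDP CD103 low (replicates 1, 2 and 3), PBS CD103 high (replicates 4, 5 and 6) and PBS CD103 low (replicates 1, 3, 4 and 6). All groups thus carried the tumour and its Flt3L, and no group without the tumour was analysed. The labels do not say whether an array stands for a single mouse, and p-values therefore cover only the spread among these samples, part of which may be technical.

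The deposited values are log2 probe set signals on 13 arrays of the Mouse Gene 2.0 ST type, and all levels below are on that scale. Array medians over all 41345 probe sets lay between 5.00 and 5.13. All 11 measured markers of type 1 conventional dendritic cells, the CD8+ lineage named by the labels, lay above the 95th percentile of 1105 olfactory receptor genes, a level of 5.12 taken as background, and so did all 37 kinetochore genes. The gene for CD103, Itgae, read 11.44, 11.10 and 11.51 in MDP CD103 high cells and 10.68, 10.07 and 9.64 in MDP CD103 low cells, against 10.16, 10.22 and 10.07 in PBS CD103 high cells and 8.35, 8.17, 7.73 and 7.46 in PBS CD103 low cells. The MDP CD103 low cells therefore lay near the PBS CD103 high cells in Itgae. Xist, which is transcribed in female cells, read 10.98 to 11.21 on 7 arrays and 4.47 to 6.69 on the other 6 although all animals were labelled male, and every group held both kinds. The Y-linked gene Eif2s3y read 3.20 to 4.17 on the 7 arrays and 7.94 to 8.64 on the others, and Kdm5d and Uty divided the arrays alike. The 7 arrays thus had a female pattern, against the label. Under MDP they were replicates 3 and 4 of CD103 high and replicate 3 of CD103 low. Replicate 1 of MDP CD103 low stood apart: it was the lowest of all arrays for 18 of the 37 kinetochore genes and the lowest of its group for 34.

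Transcripts of the kinetochore and the spindle checkpoint were at their highest in MDP CD103 high cells. The group mean was the highest of the 4 for all 37 genes, and 31 of them were higher on each of the 3 arrays of that group than on each of the other 10 arrays, against 2.11% of all genes. The 6 exceptions were Cenpa, Cenpm, Cenpf, Bub1b, Bub3 and Aurka. The mean over the 37 genes was 7.90, 7.91 and 7.70 on the MDP CD103 high arrays and 6.91, 7.31 and 7.24 on the MDP CD103 low arrays, against 7.36, 7.12 and 6.98 on the PBS CD103 high arrays and 7.34, 7.33, 7.29 and 7.12 on the PBS CD103 low arrays. All 3 arrays of the first group thus lay above every other array, and the other 3 groups overlapped. As group values this was 7.84 ± 0.12 (SD, n = 3), 7.16 ± 0.21 (n = 3), 7.16 ± 0.19 (n = 3) and 7.27 ± 0.10 (n = 4) in the same order, while the mean over all genes stayed between 5.77 and 5.79 on every array. Because the genes were chosen with earlier results of these data known, no test was made of this mean. In sorted bulk cells, more cells that express these genes and more transcript in each such cell cannot be told apart.

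**Figure D1:**
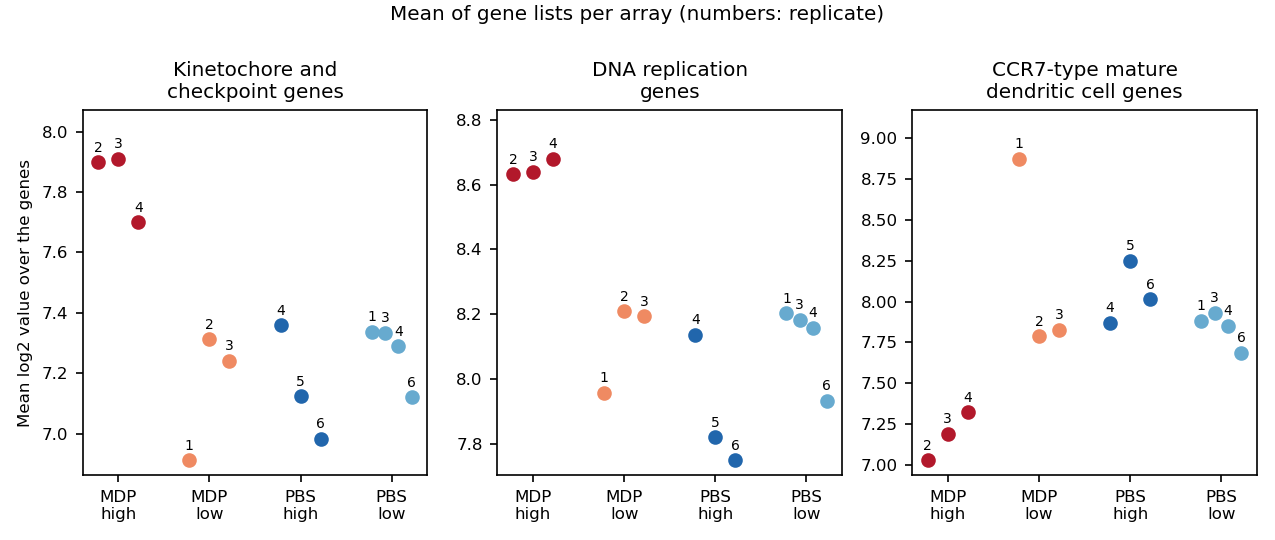
Mean log2 value on each of the 13 arrays (points, with their replicate numbers), by group, over the 37 kinetochore and spindle checkpoint genes, over 35 DNA replication genes and over 15 genes of CCR7-type mature dendritic cells. In the first panel the 3 MDP CD103 high arrays lie between 7.70 and 7.91, above the other 10 arrays, which reach 7.36 at most, and in the last panel they lie below all others, at 7.03 to 7.32.

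**Figure D2:**
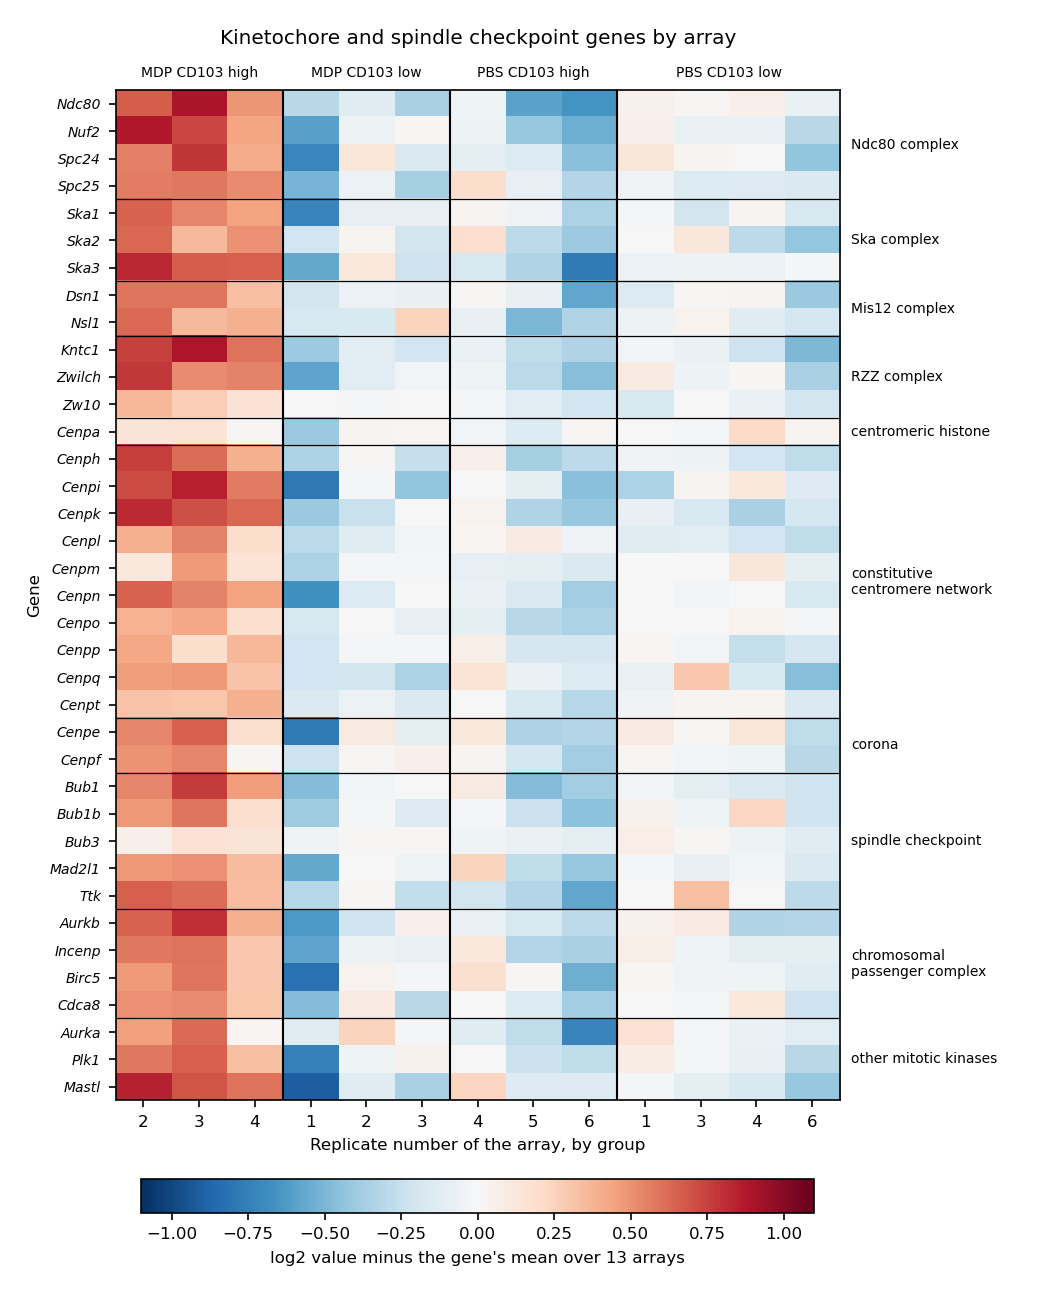
Heat map of the level of each of the 37 genes on each array, in log2 units relative to the mean of that gene over all 13 arrays, with genes ordered by role. The MDP CD103 high columns are raised for nearly all genes, and replicate 1 of MDP CD103 low is the lowest column for 18 genes.

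Sequence is shown for 5 genes that span the range of these results: Ndc80, Ska3 and Kntc1 were among the genes with the smallest p-values between MDP and PBS in CD103 high cells, Mastl had the largest difference between CD103 high and low cells under MDP, and Cenpa, the centromeric histone, differed little in either comparison. Each sequence is the RefSeq promoter window of GRCm38.p6, from 250 bases before to 50 bases after the gene's start, written 5′ to 3′ on the strand of the gene. Capitals mark CCAAT boxes, which the factor NF-Y binds, and TTTGAA or TTTAAA, the core of the cell cycle homology region (CHR), an element known from promoters of G2 and mitosis genes, on either strand, so that they also read ATTGG and TTCAAA. The windows lie at chr17:71526808-71527107 on the minus strand for Ndc80, chr14:57826114-57826413 on the minus strand for Ska3, chr5:123749476-123749775 on the plus strand for Kntc1, chr2:23155975-23156274 on the minus strand for Mastl and chr5:30666636-30666935 on the plus strand for Cenpa.
Ndc80: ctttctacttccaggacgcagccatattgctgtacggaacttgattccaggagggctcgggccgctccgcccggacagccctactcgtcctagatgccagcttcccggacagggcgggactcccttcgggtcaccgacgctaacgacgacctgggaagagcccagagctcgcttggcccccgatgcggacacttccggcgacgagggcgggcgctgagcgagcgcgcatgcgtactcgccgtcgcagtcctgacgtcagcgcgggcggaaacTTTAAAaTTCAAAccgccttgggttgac
Ska3: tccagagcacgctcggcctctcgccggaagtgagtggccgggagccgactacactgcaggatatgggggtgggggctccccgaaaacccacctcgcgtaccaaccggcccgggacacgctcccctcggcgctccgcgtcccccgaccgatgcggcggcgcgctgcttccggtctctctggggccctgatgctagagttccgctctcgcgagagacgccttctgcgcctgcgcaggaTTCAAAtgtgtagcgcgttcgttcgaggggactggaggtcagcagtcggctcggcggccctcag
Kntc1: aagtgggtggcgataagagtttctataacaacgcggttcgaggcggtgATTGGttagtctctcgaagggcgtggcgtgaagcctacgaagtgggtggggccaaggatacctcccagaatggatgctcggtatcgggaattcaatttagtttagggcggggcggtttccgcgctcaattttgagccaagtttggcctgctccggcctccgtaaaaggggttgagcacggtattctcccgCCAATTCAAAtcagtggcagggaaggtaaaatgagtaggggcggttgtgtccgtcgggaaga
Mastl: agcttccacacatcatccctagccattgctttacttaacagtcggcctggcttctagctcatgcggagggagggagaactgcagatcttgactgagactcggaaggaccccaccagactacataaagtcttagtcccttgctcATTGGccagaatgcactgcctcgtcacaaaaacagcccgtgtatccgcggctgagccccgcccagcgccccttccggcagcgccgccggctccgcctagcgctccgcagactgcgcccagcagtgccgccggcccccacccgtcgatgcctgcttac
Cenpa: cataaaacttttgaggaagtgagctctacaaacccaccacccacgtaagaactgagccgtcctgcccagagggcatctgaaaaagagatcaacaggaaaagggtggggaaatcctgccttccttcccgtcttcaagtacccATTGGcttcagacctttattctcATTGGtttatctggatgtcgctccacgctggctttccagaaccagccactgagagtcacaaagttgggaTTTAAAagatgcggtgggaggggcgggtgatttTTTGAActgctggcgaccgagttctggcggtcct

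The Ndc80 window held TTTAAA and TTTGAA, the second on the reverse strand, 22 and 29 bases after the start. Ska3 held TTTGAA on the reverse strand 14 bases before the start, and no CCAAT. In Kntc1 a CCAAT box and a reverse TTTGAA overlapped just before the start, and a further CCAAT lay 202 bases before it. The Mastl window held a CCAAT box on the reverse strand but none of the CHR letters, and Cenpa held a pair of reverse CCAAT boxes, TTTAAA and TTTGAA. The gene that differed least of the 5 thus held the most of these letters.

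A RefSeq window was at hand for 31 of the 37 genes, all but Aurkb, Incenp, Nsl1, Ska1, Spc24 and Zwilch, and for 27025 genes in all. CCAAT was found in 21 of the 31 (67.7%) and in 41.1% of all genes. TTTGAA was found in 15 (48.4%) against 20.2%, TTTAAA in 8 (25.8%) against 14.9%, and either of them in 18 (58.1%) against 30.6%. A window with both CCAAT and a CHR core belonged to 13 of the 31 (41.9%) and to 12.2% of all genes. Of the letters tried for E2F factors, which act at the start of S phase, TTTCCCGC was found in 3 (9.68%, against 1.24% of all genes), TTTGGCGC in 1 (0.585% of all genes) and TTTCGCGC in 0 (0.374%). The match with TTTGAA lay within 50 bases of the start in 13 of the 15 kinetochore genes that held it, the others being Cenpl and Zw10, and in 1546 of 5466 genes overall (28.3%). That distance was chosen after the positions were seen. Among the genes that passed the test between MDP and PBS in CD103 high cells, 11 of 18 held a CHR core, and 7 of 13 among those that did not pass. For CCAAT the counts were 11 of 18 and 10 of 13. Such matches describe letters in the windows and were not tested as binding sites.

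MDP against PBS in CD103 high cells compares the cells sorted as CD103 high after each injection. Itgae itself was higher in this fraction after MDP, with a mean of 11.35 against 10.15. Whether the fraction held the same cells under both treatments was not tested. In limma, with Benjamini-Hochberg adjustment over 22180 genes, 22 of the 37 kinetochore genes were higher after MDP at an adjusted p under 0.05 and none were lower, where 1.42% of all genes were higher and 0.397% lower. The difference was above 0 for all 37, with a median of 0.68 (1.60-fold) and a range of 0.16 to 1.14 on the log2 scale, and the median over all genes was -0.013. For 36 of the 37, all but Cenpf, the MDP arrays lay above the PBS arrays without overlap, which held for 8.96% of all genes. Ska3 and Ndc80 had the largest differences, and Cenpa and Bub3 the smallest.

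**Figure D3:**
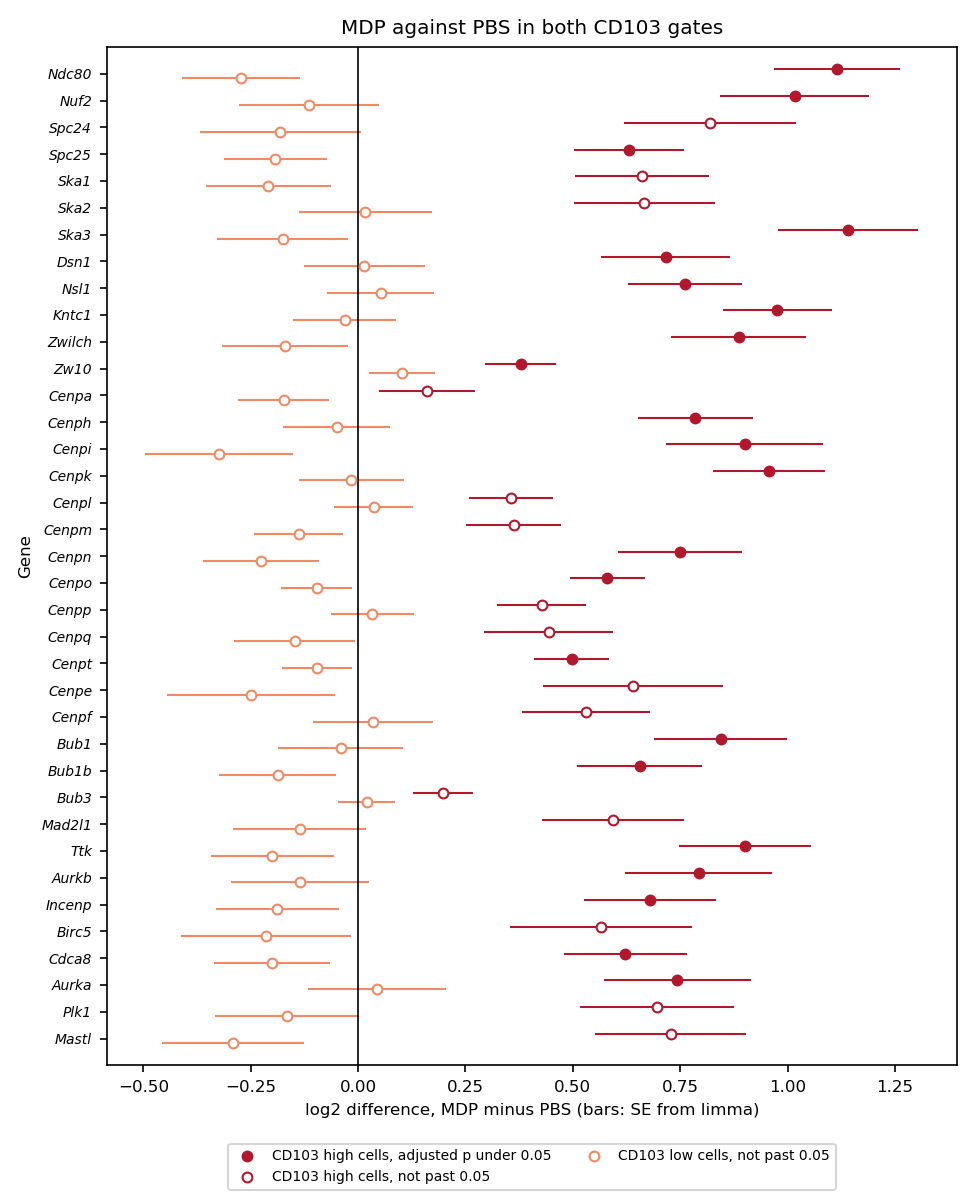
Log2 difference, MDP minus PBS, of each of the 37 genes (points) with its standard error from the limma fit (bars), in CD103 high and in CD103 low cells; filled points passed an adjusted p of 0.05. In CD103 high cells all 37 differences are above 0 and 22 are filled, and in CD103 low cells they range between -0.32 and 0.10 and none is filled.

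In the NDC80 complex, the microtubule-binding part of the outer kinetochore, 3 of 4 subunit genes rose. Ndc80 read 8.82, 9.06 and 8.64 in MDP CD103 high cells, against 8.11, 7.57 and 7.50 in PBS CD103 high cells. The groups did not overlap, with replicate 4 the highest of the PBS arrays, and the difference was 1.12 ± 0.15 (SE; 2.17-fold; limma adjusted p = 0.00491). Its partner Nuf2 rose by 1.02 (adjusted p = 0.0121, limma) and Spc25 by 0.63 (adjusted p = 0.0258), while Spc24, at 9.16, 9.39 and 9.01 after MDP and 8.50, 8.45 and 8.14 after PBS, missed the threshold with a difference of 0.82 (adjusted p = 0.061).

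The SKA complex helps the NDC80 complex hold on to microtubule ends. Ska3 read 7.13, 6.96 and 6.95 in MDP CD103 high cells, against 6.12, 5.97 and 5.52 in PBS CD103 high cells. No PBS array came near the MDP arrays, and the difference of 1.14 ± 0.16 (2.21-fold; limma adjusted p = 0.0052) was the largest among the 37 genes. Ska1, with a difference of 0.66 (adjusted p = 0.0525), and Ska2, with 0.67 (adjusted p = 0.0643), did not pass in the same limma fit.

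Both measured subunits of the MIS12 complex, which links the inner to the outer kinetochore, rose. Nsl1 read 7.16, 6.90 and 6.93 in MDP CD103 high cells and 6.46, 6.04 and 6.21 in PBS CD103 high cells, with no overlap (0.76; limma adjusted p = 0.0128). Dsn1 rose by 0.72 (adjusted p = 0.0295). All 3 genes of the RZZ complex, which sits on unattached kinetochores and brings in the checkpoint proteins MAD1 and MAD2, rose as well. Kntc1, the Rod subunit, read 7.64, 7.78 and 7.49 after MDP and 6.82, 6.61 and 6.56 after PBS. These arrays were far apart, with a difference of 0.98 ± 0.13 (1.97-fold; limma adjusted p = 0.00491). Zwilch rose by 0.89 (adjusted p = 0.0137) and Zw10, which also serves membrane traffic outside mitosis, by 0.38 (adjusted p = 0.0354).

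The constitutive centromere network is the inner layer that stays on the centromere throughout the cell cycle, and 6 of its 10 measured genes rose: Cenpk, Cenpo, Cenph, Cenpt, Cenpn and Cenpi. Cenpk read 8.24, 8.13 and 8.05 in MDP CD103 high cells, against 7.46, 7.08 and 7.00 in PBS CD103 high cells. The groups were well apart (0.96; limma adjusted p = 0.00495). The differences of the other 5 were 0.50 for Cenpt to 0.90 for Cenpi (limma adjusted p = 0.00639 for Cenpo to 0.0263 for Cenpi). Cenpl, Cenpm, Cenpp and Cenpq had differences of 0.36 to 0.44 and did not pass. The histone itself, Cenpa, read 8.29, 8.31 and 8.16 after MDP and 8.12, 8.00 and 8.16 after PBS. These values all but touched, and the difference of 0.16 ± 0.11 (limma adjusted p = 0.604) was the smallest of the 37. Cenpe, the kinesin of the fibrous corona, with a difference of 0.64, did not pass. Cenpf, a corona protein with a role in attachment, read 6.82, 6.87 and 6.34 after MDP and 6.35, 6.13 and 5.95 after PBS. Its groups overlapped through replicate 4 of each, and the difference of 0.53 did not pass either (limma adjusted p = 0.108).

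Among the 5 genes of the spindle checkpoint, Ttk, Bub1 and Bub1b rose, and Mad2l1 and Bub3 did not pass. Ttk, the kinase MPS1 that starts the checkpoint signal, read 7.38, 7.34 and 7.06 in MDP CD103 high cells and 6.52, 6.40 and 6.15 in PBS CD103 high cells. The lowest MDP array lay above the highest PBS array, and the difference was 0.90 ± 0.15 (limma adjusted p = 0.0118). Bub1, a kinase that marks centromeric chromatin and recruits other checkpoint proteins, rose by 0.84 (adjusted p = 0.0161), and Bub1b, the inhibitor BUBR1, by 0.66 (adjusted p = 0.0394). Mad2l1, the inhibitor MAD2, read 9.92, 9.94 and 9.78 after MDP, against 9.68, 9.16 and 9.02 after PBS. Replicate 4 of the PBS group lay close to the MDP arrays, and the difference of 0.59 had a limma adjusted p of 0.105. Bub3, an adaptor that brings BUB1 and BUBR1 to the kinetochore, was nearly level over all 13 arrays, with 9.17, 9.27 and 9.26 after MDP and 9.07, 9.04 and 9.00 after PBS (0.20; adjusted p = 0.224, limma).

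The chromosomal passenger complex corrects faulty attachments through its kinase Aurora B. Aurkb read 9.90, 10.06 and 9.64 in MDP CD103 high cells, against 9.18, 9.08 and 8.96 in PBS CD103 high cells, with no overlap (0.79; limma adjusted p = 0.0349). Incenp, the scaffold, rose by 0.68 (adjusted p = 0.0416) and Cdca8, borealin, by 0.62 (adjusted p = 0.0476). Birc5, survivin, did not pass, with a difference of 0.57 (adjusted p = 0.252, limma). Of the other mitotic kinases, Aurka, Aurora A of the spindle poles, read 8.15, 8.32 and 7.72 after MDP and 7.57, 7.42 and 6.98 after PBS. Its MDP array closest to the PBS arrays was replicate 4, and the difference of 0.74 passed (limma adjusted p = 0.0463). Plk1, which acts at kinetochores and in mitotic entry, had 0.70 (adjusted p = 0.076), and Mastl, the Greatwall kinase that restrains the phosphatase PP2A in mitosis, 0.73 (adjusted p = 0.0578), both short of the threshold in limma.

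How many genes passed depended on single arrays. With 1 array left out, the 22 calls became 5 without replicate 2 of MDP CD103 high, 7 without its replicate 3, 5 without replicate 5 of PBS CD103 high and 5 without its replicate 6, while the median difference stayed between 0.57 and 0.82 over the 13 arrays left out in turn.

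**Figure D4:**
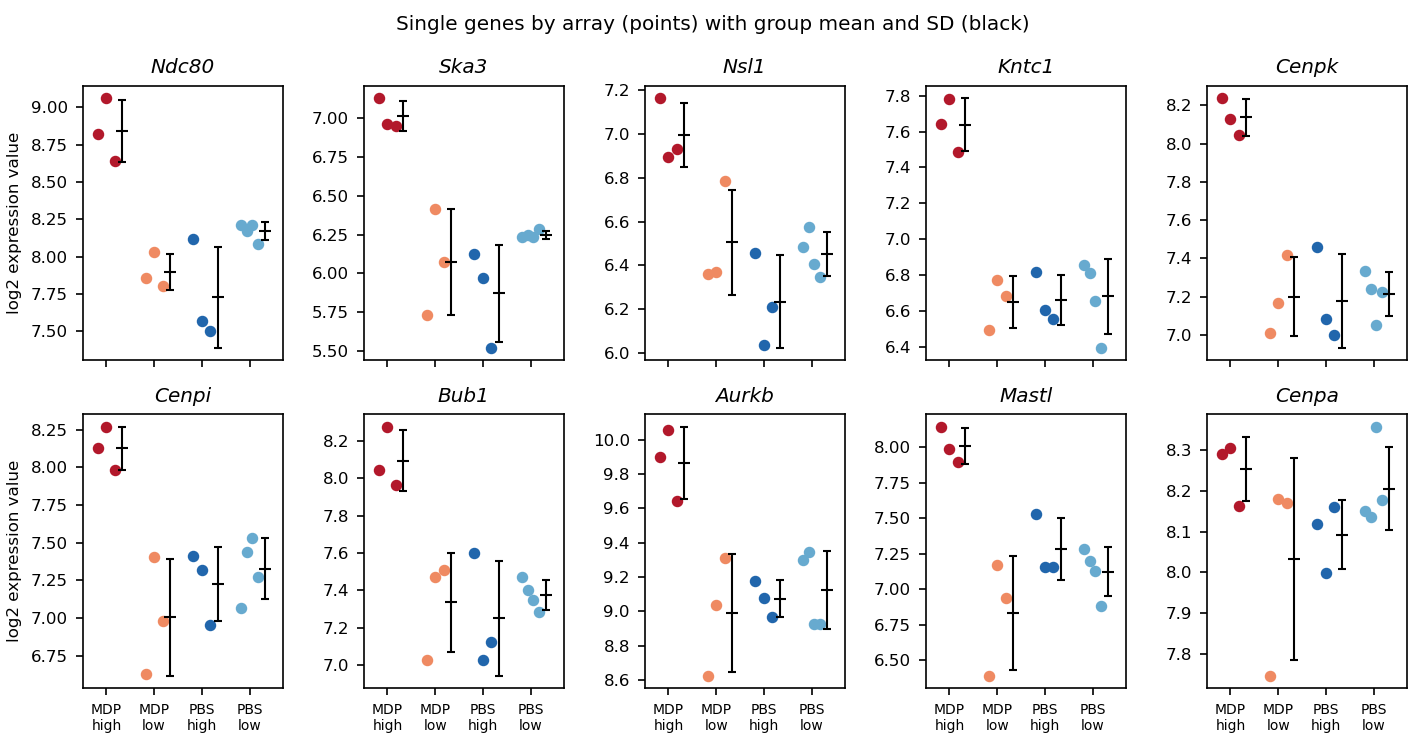
Log2 values on each array (points), by group, with group mean and SD (black), for 10 genes of different roles. For Ndc80, Ska3 and Kntc1 the 3 MDP CD103 high arrays lie above all others, while for Cenpa the groups overlap.

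CD103 high against CD103 low cells of MDP-treated mice compares the CD103 fractions of the same treatment. Here 15 of the 37 genes were higher in CD103 high cells and none were lower (limma, adjusted p under 0.05), where 0.473% of all genes were higher and 0.0496% lower. All 37 differences were above 0, with a median of 0.72 (1.65-fold) and a range of 0.13 to 1.18, against a median of -0.014 over all genes. No overlap between the arrays was seen for 34 genes, against 6.43% of all genes, and the exceptions were Cenpa, Cenpf and Aurka. This comparison shares the MDP CD103 high arrays with the previous one, so the differences are not independent of it.

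Mastl had the largest difference, with 8.14, 7.99 and 7.90 in CD103 high cells, against 6.39, 7.17 and 6.94 in CD103 low cells. The low arrays lay well below, replicate 1 the farthest (1.18 ± 0.18; 2.26-fold; limma adjusted p = 0.018). Cenpi, of the centromere network, read 8.13, 8.27 and 7.99 in CD103 high cells and 6.63, 7.40 and 6.98 in CD103 low cells, again with replicate 1 the lowest (1.12; limma adjusted p = 0.0221). These were the 2 genes of the 15 with a difference of at least 2-fold. Kntc1, with 7.64, 7.78 and 7.49 in CD103 high cells and 6.49, 6.77 and 6.68 in CD103 low cells, had the smallest p-value (0.99; limma adjusted p = 0.0152).

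By role, 3 of 4 NDC80 complex genes, 2 of 3 SKA genes, 2 of 3 RZZ genes and 6 of 10 genes of the centromere network were higher in CD103 high cells. Ndc80 and Spc25 differed by 0.95 and 0.87, Nuf2 by 0.90, Ska3 by 0.94 and Ska1 by 0.85 (limma adjusted p between 0.018 and 0.0416 for the 5). In the centromere network, Cenpk differed by 0.94, Cenpn by 0.82, Cenph by 0.79, Cenpl by 0.53 and Cenpt by 0.46 beside Cenpi. Zwilch, with 0.86, and Aurkb, with 0.88, also passed. None of the 5 spindle checkpoint genes passed: Bub1, at 8.04, 8.28 and 7.96 in CD103 high cells and 7.03, 7.47 and 7.51 in CD103 low cells, came closest with a difference of 0.76 (limma adjusted p = 0.0529). Its arrays did not overlap, and 4 of the 5 checkpoint genes had an unadjusted p under 0.05, against 10.2% of all genes. Dsn1 and Nsl1 of the MIS12 complex differed by 0.62 and 0.49, and Cenpe by 0.72, without passing. Cenpa differed by 0.22 (adjusted p = 0.546) and Aurka by 0.33 (adjusted p = 0.557), with replicate 4 of CD103 high, at 7.72, below replicate 2 of CD103 low, at 7.95.

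Replicate 1 of MDP CD103 low was the lowest array of its group for most of the genes. Spc25 read 7.58, 7.60 and 7.54 in MDP CD103 high cells, against 6.50, 6.95 and 6.65 in MDP CD103 low cells. Ska3 read 7.13, 6.96 and 6.95 against 5.73, 6.42 and 6.07 in the same order, and Cenpk 8.24, 8.13 and 8.05 against 7.01, 7.17 and 7.42. For all 3 genes the groups were well apart, with replicate 1 the lowest of the CD103 low arrays. Aurkb read 9.90, 10.06 and 9.64 in MDP CD103 high cells and 8.62, 9.03 and 9.31 in MDP CD103 low cells, and the kinesin gene Cenpe read 7.90, 8.01 and 7.54 in MDP CD103 high cells and 6.58, 7.46 and 7.26 in MDP CD103 low cells. In both, replicate 1 was again the lowest, and the other CD103 low arrays lay closer to the CD103 high arrays. Dsn1 read 6.88, 6.88 and 6.63 in MDP CD103 high cells, against 6.09, 6.22 and 6.21 in MDP CD103 low cells, without overlap. Cenpa read 8.29, 8.31 and 8.16 in MDP CD103 high cells and 7.75, 8.18 and 8.17 in MDP CD103 low cells, where all arrays but replicate 1 of the CD103 low group lay together.

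These calls also turned on few arrays. The 15 became 0 without replicate 2 or without replicate 3 of MDP CD103 high, 2 without replicate 1 of MDP CD103 low, and 9 without replicate 3 of MDP CD103 low, replicate 4 of PBS CD103 low or replicate 5 of PBS CD103 high. The median stayed between 0.58, without replicate 1 of MDP CD103 low, and 0.83. Arrays of the same number and treatment varied together, and with number and treatment as a fixed replicate block, which compares high and low arrays within pairs and leaves 2 residual degrees of freedom, 0 of the 15 passed the threshold in limma (median 0.65). With the same pairs as a random block, 22 genes passed, all 15 included.

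In CD103 low cells, no kinetochore gene passed between MDP and PBS (limma, 0 of 37 at an adjusted p under 0.05 and 0 at an unadjusted p under 0.05; of all genes 0.00451% passed, namely Itgae, and 6.06% had an unadjusted p under 0.05). Itgae had a mean of 10.13 after MDP and 7.92 after PBS in this fraction. Whether it held the same cells under both treatments was not tested. The difference was below 0 for 28 of the 37 kinetochore genes, with a median of -0.14 and a range of -0.32 to 0.10. Ndc80 read 7.86, 8.03 and 7.80 in MDP CD103 low cells, against 8.21, 8.17, 8.21 and 8.09 in PBS CD103 low cells. It was the only one of the 37 whose groups did not overlap, with the MDP arrays the lower (-0.27; limma adjusted p = 0.818), where 2.52% of all genes were lower without overlap. Without replicate 1 of the MDP group the median was 0.026, and of the 28 genes below 0 the difference stayed below 0 for 16, Ndc80 among them, and lay above 0 for 12.

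In PBS-treated mice, no kinetochore gene passed between CD103 high and CD103 low cells in limma either (0 of 37, with 6 at an unadjusted p under 0.05; of all genes 0.0766% passed and 8.52% had an unadjusted p under 0.05). The difference was below 0 for 32 of the 37, with a median of -0.10. The 6 genes were Ndc80 (-0.44), Ska3 (-0.38), Ttk (-0.37), Aurka (-0.37), Cenpo (-0.26) and Cenpl (0.21). Cenpo, an inner kinetochore protein, read 6.62, 6.41 and 6.37 in PBS CD103 high cells and 6.72, 6.72, 6.75 and 6.70 in PBS CD103 low cells. The CD103 high arrays were all lower, as they were for Ska3 and Aurka, while those of Cenpl were all higher, at 6.26, 6.32 and 6.20 against 6.11, 6.11, 6.02 and 5.96. These 4 genes were the only ones of the 37 without overlap between the groups, against 4.48% of all genes without overlap on the higher side and 4.05% on the lower side.

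The interaction is the MDP minus PBS difference in CD103 high cells less that in CD103 low cells. Itgae was higher after MDP in both fractions, and whether each held the same cells under both treatments was not tested. The interaction was above 0 for all 37 genes, with a median of 0.83, against -0.012 over all genes. Ndc80 alone passed, with 1.39 ± 0.20 (limma adjusted p = 0.0486), where 0.0721% of all genes passed. An unadjusted p under 0.05 was reached by 36 of the 37, against 9.63% of all genes, and 11 further genes had an adjusted p between 0.05 and 0.1. Ska3, with 1.32 (adjusted p = 0.0553), Kntc1, with 1.01 (adjusted p = 0.0631), Cenpo, with 0.68 (adjusted p = 0.0682), and Cenpk, with 0.97 (adjusted p = 0.0704), followed in limma. A difference between the CD103 fractions in the response of the other 36 genes was thus not shown at this threshold. Completing the arrays of the leading gene of each role, Ska3 read 6.23, 6.24, 6.23 and 6.29 in PBS CD103 low cells, Kntc1 6.86, 6.81, 6.66 and 6.40, and Cenpa 8.15, 8.14, 8.36 and 8.18. Cenpo read 7.10, 7.14 and 6.90 in MDP CD103 high cells and 6.54, 6.72 and 6.62 in MDP CD103 low cells. All MDP CD103 high arrays of Cenpo lay above the others, and its PBS CD103 high and MDP CD103 low arrays overlapped. Ttk read 6.41, 6.73 and 6.45 in MDP CD103 low cells, against 6.71, 7.05, 6.72 and 6.43 in PBS CD103 low cells, and Nsl1 6.36, 6.37 and 6.78 against 6.48, 6.58, 6.40 and 6.35. Both genes overlapped between these groups. Cdca8 read 8.01, 8.02 and 7.81 in MDP CD103 high cells and 7.02, 7.60 and 7.19 in MDP CD103 low cells, against 7.50, 7.35 and 7.12 in PBS CD103 high cells and 7.50, 7.49, 7.62 and 7.28 in PBS CD103 low cells. Mastl read 7.53, 7.16 and 7.16 in PBS CD103 high cells and 7.28, 7.20, 7.13 and 6.88 in PBS CD103 low cells, and Cenpe 7.48, 7.02 and 7.03 and 7.45, 7.37, 7.50 and 7.08 in the same order. In these 3 genes the PBS groups overlapped. With number and treatment as a fixed replicate block 0 genes passed (1.37 for Ndc80; limma adjusted p = 0.397), and with the same pairs as a random block 5 passed, Ndc80 included. The interaction count was 13 without replicate 4 of PBS CD103 high, 3 without replicate 6 of PBS CD103 low, 2 without replicate 2 of MDP CD103 low and 0 without any 1 of the other 10 arrays.

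A further 62 measured genes were read from the same fit. They are genes of the kinetochore, cohesin protection and mitotic exit, with cell cycle regulators and transcription factors among them. Between MDP and PBS in CD103 high cells their median difference was 0.22. Of them 12 were higher, against 1.42% of all genes, and none were lower, against 0.397%. They were Mybl2 and Foxm1, transcription factors of G2 and mitosis genes, Spdl1, an adaptor between the RZZ complex and dynein, Ccna2, cyclin A2, and Knl1, the scaffold for BUB1, together with Mis18a, Bora, Espl1, Spag5, Cdk1, Pmf1 and Cenps. Mybl2 differed by 0.71 (limma adjusted p = 0.00631) and Foxm1 by 0.73 (limma adjusted p = 0.0159). Between CD103 high and low cells under MDP 6 were higher, against 0.473% of all genes. These were Mybl2 (0.74), Foxm1 (0.75), Spag5 (0.91), Espl1, the separase that cleaves cohesin (0.67), Sgo1, the protector of centromeric cohesin, and Cdk1. No gene of this list passed in the other 3 comparisons of the limma fit. There an unadjusted p under 0.05 was reached by 0 between MDP and PBS in CD103 low cells, against 6.06% of all genes. Between CD103 high and low cells under PBS it was reached by 4 of the 62, against 8.52%, and in the interaction by 26, against 9.63%.

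Genes of other steps of the cell cycle were set beside the kinetochore genes. Of all genes 1.42% were higher between MDP and PBS in CD103 high cells and 0.473% between CD103 high and low cells under MDP. Of 35 genes of replication origins and forks, 31 were higher between MDP and PBS in CD103 high cells (median 0.75) and 9 between CD103 high and low cells under MDP (median 0.54). Of 25 genes of mitotic kinesins, condensin and cytokinesis, 15 were higher in the first comparison (median 0.75) and 11 in the second (median 0.77). The kinetochore medians of 0.68 and 0.72 lay in the same range, and no test of a difference between the lists was made.

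Markers of other cells were read on the same arrays. The 15 measured genes of CCR7-type mature dendritic cells, which have been activated and migrate to T cell zones, had their lowest levels in MDP CD103 high cells. Their mean was 7.03 to 7.32 on the MDP CD103 high arrays and 7.79 to 8.88 on the MDP CD103 low arrays, against 7.87 to 8.25 on the PBS CD103 high arrays and 7.69 to 7.93 on the PBS CD103 low arrays, with Ccl17 alone at background. Between MDP and PBS in CD103 high cells all 15 had a difference below 0 (median -0.82). Ccr7, Ccl5, Relb, Cd80 and Birc3 passed as lower, against 0.397% of all genes. Between CD103 high and low cells under MDP all 15 were again below 0 (median -0.62). Ccr7, Ccl5 and Cd63 passed as lower, against 0.0496% of all genes. Replicate 1 of MDP CD103 low, with the lowest kinetochore mean of all arrays, had the highest mean of this list, 8.88, against 7.79 and 7.83 on the other arrays of its group. Replicate 4 of MDP CD103 high was highest of its group here (7.32) and lowest in the kinetochore mean (7.70). Replicate 4 of PBS CD103 high was lowest here (7.87) and highest in the kinetochore mean (7.36). Replicate 6 of PBS CD103 low was lowest of its group in both (7.69 and 7.12). The part of CCR7-type mature dendritic cells in the kinetochore differences was not tested.

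Of 9 markers of plasmacytoid dendritic cells, Cd300c (-0.96) and Pacsin1 (-0.77) passed as lower in MDP than in PBS CD103 high cells. Over all genes 0.397% were lower. Of the 9 differences 3 were above 0 and 6 below 0, with a median of -0.058. The list means, which include Cd300c and Pacsin1, were 6.48 to 6.54 on the MDP arrays and 6.68 to 6.74 on the PBS arrays. Under PBS both genes were higher in CD103 high than low cells, by 0.90 each (limma adjusted p = 0.0294 for Pacsin1 and 0.0328 for Cd300c). There 0.0766% of all genes passed in either direction, and 5 of the 9 markers were above 0 and 4 below 0. The 10 monocyte and macrophage markers averaged 6.19 to 6.45 in MDP CD103 high cells and 6.41 to 6.74 in MDP CD103 low cells, against 6.40 to 6.52 in PBS CD103 high cells and 6.33 to 6.54 in PBS CD103 low cells, and the 10 progenitor markers averaged 5.77 to 6.09 on all arrays. No gene of either list passed in limma between MDP and PBS in CD103 high cells or between CD103 high and low cells under MDP. An unadjusted p under 0.05 was reached there by 4 and 2 of the 10 monocyte and macrophage markers. For the 10 progenitor markers the counts were 1 and 2, and over all genes 2956 and 2255 of 22180. Among 10 cDC2 markers, Sirpa alone passed as lower in the CD103 high fraction under MDP, with 5.38 against 5.88 in the CD103 low fraction. Over all genes 0.0496% were lower. Of the 10 differences 3 were above 0 and 7 below 0, with a median of -0.021. The lists for B cells, T cells, natural killer cells, erythroid cells and B16 melanoma averaged 4.81 to 5.54 on every array, and 5 of 7, 4 of 6, 4 of 6, 4 of 4 and 5 of 8 of their genes, in that order, lay at background, Cd79a, Cd3e, Ncr1, Klf1 and Tyr among them. Fcrla, on the B cell list, lay above background. It was lower after MDP in CD103 high cells, with 8.35 against 9.08 after PBS (-0.72; limma adjusted p = 0.00491), and higher in CD103 high than low cells under PBS, with 9.08 against 8.32 (0.75; limma adjusted p = 0.0121). Its part in the kinetochore differences was not tested.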

How the data were processed

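The deposited values are log2 probe set signals, made by the authors with RMA in Affymetrix Expression Console, per the submitters' processing notes. Versions were not given in the sources used here. For each array 400 ng of RNA went into a pre-amplification and biotin labelling, per the labels. RMA corrects background and aligns the distributions of the arrays, so that a shift shared by most genes would be removed.

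Of 41345 probe sets, 23521 carry 1 symbol, 1814 several and 16010 are not listed with a gene. The first gave 22180 genes, with the probe set of highest mean for the 1082 genes with more than 1. Among the 37 genes described this choice applied to Ska2. No filter on low values was applied.

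The 13 arrays entered a single limma 3.58.1 fit (R 4.3.3) with 1 mean per group, contrasts.fit and eBayes, with 9 residual and 3.86 prior degrees of freedom. Tests were two-sided, with Benjamini-Hochberg adjustment over all genes of a contrast and a threshold of 0.05. The fit was tested on simulated data. With 3 or 4 arrays per group, their number sets the precision. The labels reuse replicate numbers in several groups and do not say what a number marks. As a check of pairing, deviations from the group means were correlated over genes above the median level. The 4 pairs of the same number and treatment had correlations of 0.20 to 0.37 and each shared a high or a low Xist level. They were replicates 2 and 3 of MDP and replicates 4 and 6 of PBS. The main fit has no block, so its calls between CD103 high and low cells and its interaction ignore this pairing. Pairing within a treatment entered only the alternatives with number and treatment as a block, added after the data were seen. Across treatments the correlations were -0.24 to 0.45, and no pairing was taken. The members and lists were chosen with earlier results of these data known. All 37 genes are named, and the gene of smallest p in each role has its values by array. Tables were read with Python 3.11.15 and pandas 2.3.3. Alternatives were other normalisation, filters, weights, blocks and leaving out each array.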

Additional observations from a re-analysis of the deposited data

Results flagged for a closer look

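In PBS CD103 low cells, the group of 4 arrays, Cenpn on replicate 6 read 7.33 while the other 3 arrays read 7.47 to 7.49. The gap was large for the range of the group by Dixon's 95% critical value. Of 38 sets of 4 values tested in this way 1 stood out, and chance gives about 1 in 20. The effect of MDP on Ndc80 differed between CD103 high and CD103 low cells by 1.39 (limma interaction, adjusted p = 0.0486). Over 24 alternatives this call held in 10, with an adjusted p of 0.00461 to 0.397.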

How the results depend on the processing

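Of 22 genes passing between MDP and PBS in CD103 high cells, 0 remained with the number alone as a fixed replicate block, 13 passed with only the arrays of the groups compared, 11 with p adjusted over all probe sets, and 5 to 28 with each array left out in turn. Of 15 between CD103 high and low cells under MDP, 0 remained with that block, with the replicate block within treatment (added after the data were seen), with only the compared arrays or over all probe sets, 7 with the arrays split by Xist as a block, and 0 to 18 with an array left out. For the interaction, with 1 gene, the count was 0 with either fixed block, with the Xist block and over all probe sets, 2 after quantile normalisation, 3 with the number and 5 with number and treatment as a random block (both added later), 4 with array weights, 12 with a variance trend and robust fit, 13 among genes above the median level, and 0 to 13 with an array left out. For both comparisons without a passing gene the count stayed 0 in all alternatives, and the fixed block within treatment changed no other call between CD103 high and low cells. As a random block it left 20 of the 22 calls between MDP and PBS, without Aurka and Incenp.

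The median difference between MDP and PBS stayed above 0 in CD103 high cells (0.42, with the replicate block, to 0.82). In CD103 low cells it was -0.30 with that block, -0.19 to 0.026 with an array left out, and turned above 0 only without replicate 1 of MDP CD103 low. Between CD103 high and low cells the medians kept their sign, at 0.58 to 0.83 under MDP and -0.20 to -0.036 under PBS, and the interaction median was 0.66 to 0.95. Over 927 repeats of calls of single genes, 620 held, 307 lost the threshold and 0 turned direction. The causes of these shifts were not tested. Comparing only 2 groups was not possible for the interaction. All measured kinetochore genes lay above the olfactory receptor level of 5.12, and their lowest value on a single array was 5.52, for Ska3. Whether signal over background limited their differences was not tested.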
